A study of Mus musculus with 15 samples.

Results

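The transcripts described here are 8 of urea synthesis in mouse liver: the mRNAs of the enzymes Nags, Cps1, Otc, Ass1, Asl and Arg1 and of the mitochondrial carriers Slc25a15 and Slc25a13. They were chosen by gene name and not by a rule on their values, though with earlier results of these data known. They are 8 of the 35275 genes in the count table. All 8 passed the filter on low counts and were tested with 13837 genes in all. The urea cycle turns ammonia, released when amino acids are broken down, into urea, and in mammals the complete cycle runs mainly in hepatocytes, most of all in those near the portal vein. Its first steps lie in the mitochondrion and the later ones in the cytosol, so that ornithine must enter, and citrulline and aspartate must leave, through carriers of the inner membrane. Long fasts and protein-rich diets are known to raise the activity of the pathway in liver, in part through glucagon and glucocorticoids.

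The libraries come from the left lateral liver lobe of C57BL/6 mice. The mice entered the study at 3 months of age and left it at 6 months. Over the 3 months between they were fed ad libitum (AL), fasted intermittently for 16 h (IF16) or fasted for 24 h every other day (EOD), with random assignment to the regimens. Each regimen has 5 libraries of mRNA selected with poly-T beads, and the study compared liver gene expression between the regimens. The labels do not give the sex of the mice, the time since the last meal at harvest, or whether the 5 libraries of a group are 5 mice, so p-values measure only the spread between libraries, part of which may be technical.

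Library totals ran from 28129883 to 38147534 counts, and the members together took 0.757% to 1.03% of them (counting only counts assigned to genes). The summed CPM (counts relative to the library total, adjusted with TMM factors) of 7 hepatocyte markers lay between 87230 and 135300 in every library. Some libraries stood apart. AL replicates 4 and 5 had summed levels of 14 acute phase genes of 40750 and 58400 CPM, against 11640 to 21140 CPM in the other 13 libraries. The same 2 libraries had the highest sums of 7 neutrophil markers, 36.1 and 33.0 CPM, against 2.03 to 5.87 CPM in the others. Mitochondrially encoded transcripts took 10.08% of counts in EOD replicate 5 and 5.34% to 6.82% in the other EOD libraries, against 8.98% to 15.1% in AL and IF16. Summed markers of sinusoidal endothelium (8 genes) were at 107 to 186 CPM in AL, 220 to 259 in IF16 and 216 to 263 in EOD, and those of stellate cells (8 genes) at 212 to 347, 327 to 367 and 343 to 468 CPM. Their part in the values below was not tested, and in bulk tissue fewer cells of a type and less RNA per cell cannot be told apart.

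The 2 members that passed the test in EOD against AL were both mitochondrial carriers. Their promoters are shown here because the members moved in the same direction in that comparison. In IF16 against AL their fitted differences had opposite signs, 0.35 for Slc25a13 and -0.29 for Slc25a15, and neither passed. The 250 bases before the RefSeq start site are given 5′ to 3′ on the strand of the gene (build GRCm38.p6), for the start site that equals the gene start in the count table. Otc, whose fitted difference from AL was negative, is printed beside them for contrast. Capitals mark matches to any of 5 short motifs, searched on both strands and chosen after the sequences had been seen. Slc25a13 lies at chr6:6217174-6217423 on the minus strand, Slc25a15 at chr8:22398622-22398871 on the minus strand and Otc at chrX:10252055-10252304 on the plus strand.
Slc25a13: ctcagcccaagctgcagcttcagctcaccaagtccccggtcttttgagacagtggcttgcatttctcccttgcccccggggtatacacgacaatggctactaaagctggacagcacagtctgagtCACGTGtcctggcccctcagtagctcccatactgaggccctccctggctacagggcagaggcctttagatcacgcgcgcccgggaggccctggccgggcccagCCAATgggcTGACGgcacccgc
Slc25a15: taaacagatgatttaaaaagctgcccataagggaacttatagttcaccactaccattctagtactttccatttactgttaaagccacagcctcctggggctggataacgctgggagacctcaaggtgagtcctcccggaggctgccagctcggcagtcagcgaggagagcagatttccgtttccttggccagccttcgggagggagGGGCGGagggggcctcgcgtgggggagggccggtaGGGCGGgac
Otc: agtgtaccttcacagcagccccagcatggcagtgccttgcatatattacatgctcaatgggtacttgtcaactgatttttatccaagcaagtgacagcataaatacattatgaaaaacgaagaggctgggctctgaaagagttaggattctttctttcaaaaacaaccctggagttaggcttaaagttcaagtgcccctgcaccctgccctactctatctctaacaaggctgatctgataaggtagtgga

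In the Slc25a13 window an E-box (CACGTG, the same letters on both strands) lies 125 to 120 bases before the start, a CCAAT box (CCAAT) 22 to 18 bases before it, and the letters TGACG, the core of a cAMP response element, 13 to 9 bases before it. The Slc25a15 window holds the GC box (GGGCGG) at 44 to 39 and at 9 to 4 bases before the start. The Otc window holds none of these letters and no TATAAA, and none of the matches overlap. Among 32851 promoter windows of the same length, CACGTG was found in 6.02%, TGACG in 17.8%, CCAAT in 33.8%, GGGCGG in 32.7% and TATAAA in 12.4%. The printed windows of the carriers share none of the 5 motifs. A second RefSeq start site of Slc25a15, and the start site of Ass1, differ from the gene start in the count table and are not printed. The window of that second Slc25a15 start does hold CACGTG, 77 to 72 bases before it, as the Slc25a13 window does. So does the window of Ass1, 36 to 31 bases before its start, and Ass1 did not pass the test against AL. The Ass1 window also holds GGGCGG, 63 to 58 bases before its start. The Nags window, whose start equals the gene start but which is not printed, matches GGGCGG at 132 to 127 and 41 to 36 bases. Nags passed in no comparison, so the GC box was not particular to the window of Slc25a15. Bases after the second Slc25a15 start were not found near the beginning of a reference transcript of the gene, while those after the other starts were.

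Levels per transcript length were compared in FPKM, the deposited counts scaled by gene length and library total. The order of mean FPKM was the same in the 3 groups. Ass1, which joins citrulline and aspartate to argininosuccinate, was highest, with a mean of 2486 FPKM in AL (SD 257, n = 5). Arg1, the arginase that releases urea, followed at 1262 FPKM (SD 104). Asl, which splits argininosuccinate into arginine and fumarate, Cps1, which makes carbamoyl phosphate from ammonia, and Otc, which joins it to ornithine, had AL means of 329.5, 214 and 189 FPKM. Slc25a15, the exchanger of ornithine and citrulline, Slc25a13, the carrier that exports aspartate, and Nags, which makes the N-acetylglutamate that Cps1 needs, were lowest, at 76.4, 47.1 and 21.9 FPKM. The cytosolic enzymes Ass1 and Arg1 thus stood highest, and the carriers lay below Cps1 and Otc but above Nags, the other mitochondrial enzyme. Not every step in the order exceeded the spread between libraries. Asl and Cps1 overlapped in all 3 groups, Cps1 and Otc in AL and IF16, and Slc25a15 and Slc25a13 in IF16, where their means were 62.3 and 59.8 FPKM.

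**Figure D1:**
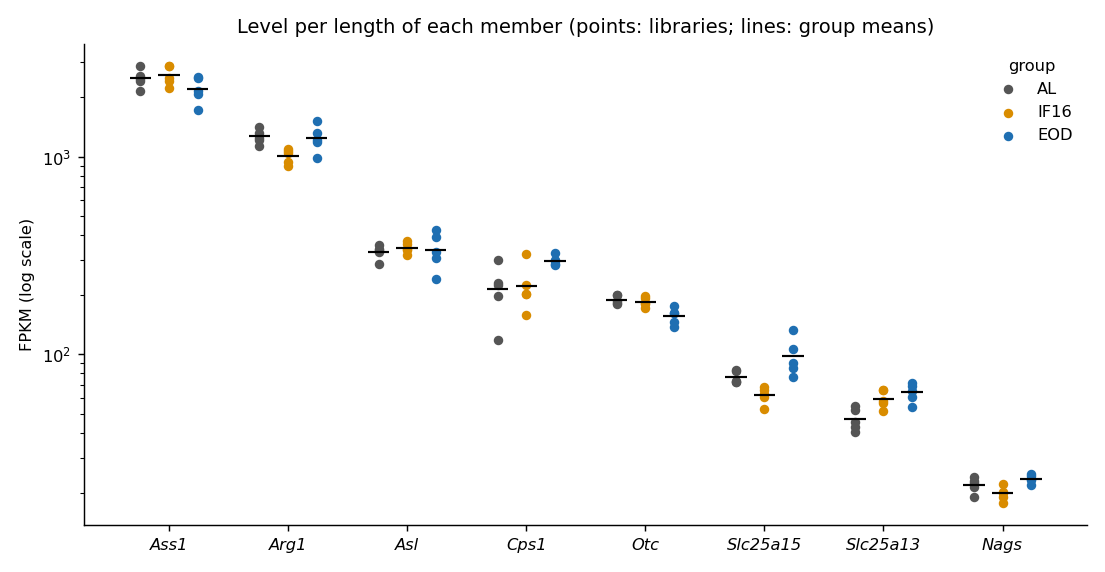
FPKM of the 8 members on a log axis, with 1 point per library and a line at each group mean (5 libraries a group). Ass1 lies at the top in every group and Nags at the bottom, Cps1 has the widest spread in AL (117.8 to 300.9 FPKM), and the Slc25a15 points of IF16 (53.0 to 68.5 FPKM) and EOD (76.3 to 132 FPKM) do not overlap.

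Slc25a13 rose in EOD against AL. It encodes citrin, which exchanges mitochondrial aspartate for cytosolic glutamate and so supplies the aspartate that Ass1 uses. The 5 AL libraries, from replicate 1 to 5, had 164, 129.5, 164.5, 143 and 131 CPM. The IF16 libraries had 194, 208, 190, 165 and 177 CPM, and the EOD libraries 211.5, 206, 236, 196 and 158 CPM. Every EOD library lay above the AL mean of 146 CPM, and the ranges overlapped only because EOD replicate 5 lay below AL replicates 1 and 3. The difference was 0.46 on the log2 scale (SE 0.11), or 1.38-fold, with an adjusted p of 0.00482 by edgeR's quasi-likelihood test with Benjamini-Hochberg adjustment over all genes tested. It was 0.43 (adjusted p = 0.0278) without AL replicates 4 and 5 and 0.57 (4e-04) without EOD replicate 5. With the mitochondrially encoded genes left out of the scaling it was 0.47 (0.00385).

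In IF16 every Slc25a13 value also lay above every AL value, although by a narrow margin, 164.6 against 164.5 CPM for the nearest libraries. The fitted difference was 0.35 (SE 0.11, 95% interval 0.11 to 0.59), or 1.27-fold, and its adjusted p of 0.0998 missed the threshold of 0.05. Without EOD replicate 5, which adds only to the shared estimate of the spread, it was 0.35 with an adjusted p of 0.0466. EOD and IF16 differed by 0.11 (95% interval -0.13 to 0.35, adjusted p = 0.546).

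Slc25a15, also known as the ornithine transporter ORNT1, brings ornithine to Otc and takes citrulline out. Its AL libraries had 273, 242, 286.5, 253 and 260 CPM, and the IF16 libraries 199, 230, 191, 240.5 and 217 CPM. The EOD libraries had 448, 317, 386.5, 273 and 275 CPM. IF16 was the low group, with no value as high as the lowest AL library, and EOD was the high and the most variable group (coefficient of variation 22.3%, against 6.65% in AL and 9.6% in IF16). EOD rose above IF16 by 0.66 on the log2 scale (SE 0.13), or 1.58-fold, with an adjusted p of 0.00268, and the 2 groups did not overlap. The rise was 0.68 (0.00367) without AL replicates 4 and 5 and 0.75 (0.000609) without EOD replicate 5.

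Against AL, Slc25a15 was higher in EOD by 0.37 (SE 0.13), or 1.29-fold, with an adjusted p of 0.0325. All 5 EOD libraries lay above the AL mean of 263 CPM, but 2 of them, replicates 4 and 5, lay within the AL range. This call held in 18 of 26 alternatives. It was lost without any 1 of 5 libraries, with adjusted p-values of 0.0692 without AL replicate 2, 0.0621 without AL replicate 4, 0.0578 without AL replicate 5, 0.11 without EOD replicate 1 (log2 difference 0.25) and 0.0868 without EOD replicate 3. Without both AL replicates 4 and 5 it was 0.38 with an adjusted p of 0.084. IF16 against AL gave -0.29 (95% interval -0.56 to -0.02, adjusted p = 0.239), which did not pass.

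**Figure D2:**
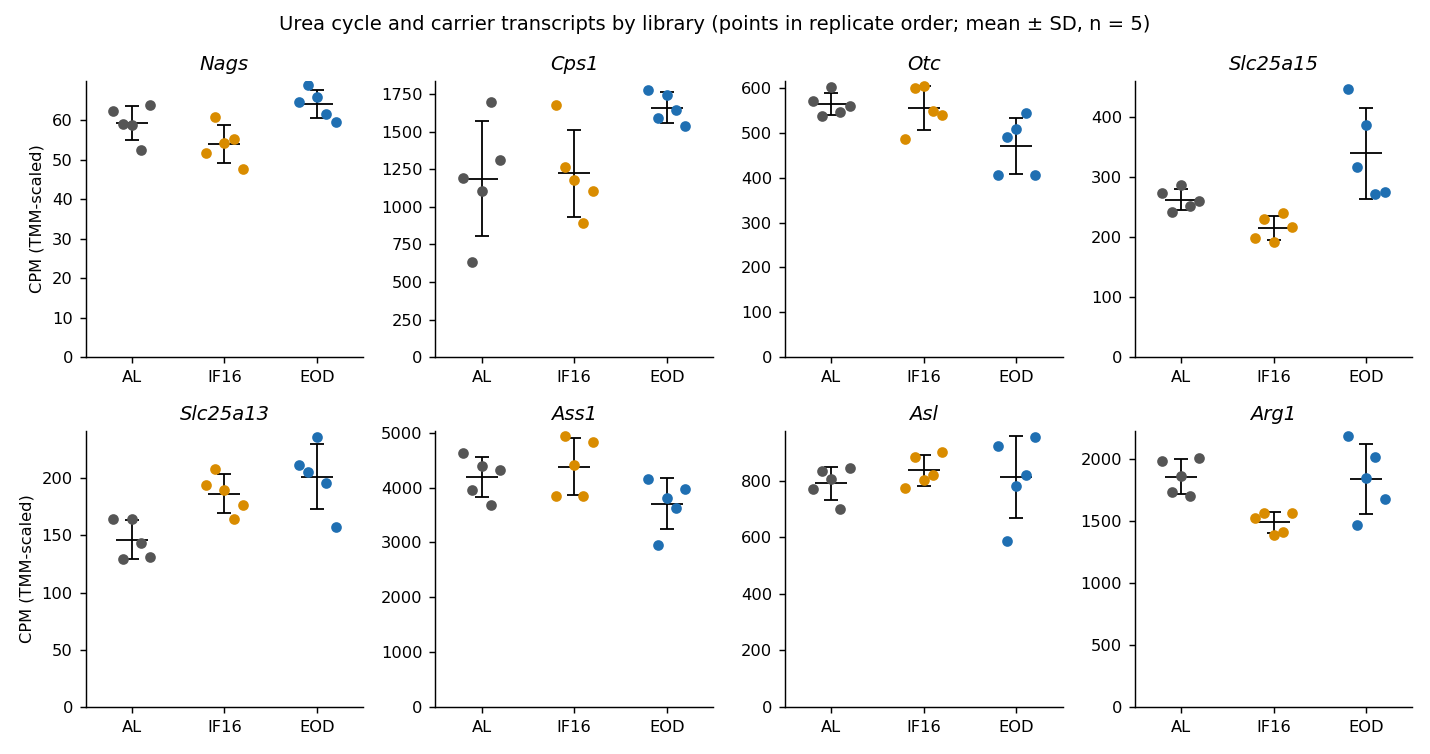
TMM-scaled CPM of each member, with 1 point per library in replicate order from left to right within a group and bars for the mean ± SD (n = 5 a group); every axis starts at 0. Slc25a15 of EOD (273 to 448 CPM) lies above all IF16 points (191 to 240.5 CPM), and Arg1 of IF16 (1387 to 1563 CPM) lies below all AL points (1698 to 2006 CPM).

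Of the mitochondrial enzymes none passed the test in any comparison. Cps1, the step at which ammonia enters the cycle, had 1192, 635.5, 1106, 1695 and 1314 CPM in AL and 1680, 1268, 1176, 893 and 1108 CPM in IF16. The EOD libraries lay close together, at 1780, 1594, 1743, 1647 and 1535 CPM. All EOD libraries were above the AL mean of 1189 CPM, yet AL replicate 4 lay among them, and the coefficient of variation was 32.2% in AL, 23.6% in IF16 and 6.12% in EOD. The EOD and AL groups differed by 0.48 (95% interval 0.07 to 0.90), or 1.4-fold, with an adjusted p of 0.0669. It passed in 5 of 26 alternatives. It was 0.64 with an adjusted p of 0.0162 without AL replicate 4, 0.79 with 0.00798 without AL replicates 4 and 5, 0.50 with 0.0426 without IF16 replicate 1, and 0.54 with 0.0493 in limma on log2 FPKM plus 1 or plus 0.1. Without AL replicate 2 it was lowest, at 0.32 with an adjusted p of 0.132. AL replicate 2, with the lowest Cps1 level, also had the highest share of mitochondrially encoded transcripts, 15.1% of counts, and the part of that share was not tested.

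Otc, the next enzyme, had 570, 539, 602, 548 and 560 CPM in AL and 485, 600, 606, 549 and 539 CPM in IF16. In EOD it had 405, 491, 508, 544 and 406 CPM. Each EOD library lay below the AL mean of 564 CPM, and only EOD replicate 4 reached the AL range. In FPKM, which are not TMM-scaled, the EOD libraries (137.5 to 175 FPKM) lay below all AL libraries (180 to 199 FPKM). The EOD difference from AL was -0.26 (95% interval -0.47 to -0.04) with an adjusted p of 0.0561, just outside the threshold. It passed in 6 of 26 alternatives, over which the adjusted p ran from 0.0111 to 0.153. Without EOD replicate 4 it was -0.31 with 0.0302, without EOD replicate 5 it was -0.18 with 0.153, and the DESeq2 Wald test gave 0.0427.

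Nags had 62.2, 58.9, 58.7, 52.5 and 63.8 CPM in AL, 51.7, 60.9, 54.2, 55.1 and 47.7 CPM in IF16 and 64.4, 68.8, 65.8, 61.5 and 59.5 CPM in EOD. EOD was the highest group and overlapped IF16 only through IF16 replicate 2. The EOD difference from IF16 was 0.25 (95% interval 0.07 to 0.43) with an adjusted p of 0.0598, and it passed in 8 of 26 alternatives, among them those without IF16 replicate 2 (0.0383) and without EOD replicate 5 (0.0206). Gm11586, which runs antisense to Nags, had 12 counts over the 15 libraries, 0.0416% of the Nags counts. The strand setting of the counting is not known, so these counts cannot tell how many of its reads were counted for Nags.

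The cytosolic enzymes showed no call either. Ass1 lay at 3691 to 4627 CPM in AL, 3843 to 4938 CPM in IF16 and 2950 to 4154 CPM in EOD, with EOD replicate 2 lowest. EOD differed from AL by -0.18 (95% interval -0.42 to 0.06, adjusted p = 0.233). Asl lay at 699 to 845 CPM in AL, 777 to 901.5 CPM in IF16 and 587 to 955 CPM in EOD, and its EOD difference from AL was 0.04 (95% interval -0.21 to 0.29, adjusted p = 0.821). These intervals leave room for changes of Asl of up to 0.29 on the log2 scale in EOD, so equal levels are not shown.

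Arg1, the last enzyme of the cycle, had 1981, 1731, 1864, 1698 and 2006 CPM in AL. Its IF16 libraries had 1519, 1562, 1387, 1411 and 1563 CPM, and the EOD libraries 2185, 1468, 1845, 2012 and 1671 CPM. All 5 IF16 libraries were below all 5 AL libraries, and the EOD libraries spanned both groups. The IF16 difference from AL was -0.32 (SE 0.11, 95% interval -0.55 to -0.09), or 1.25-fold lower, with an adjusted p of 0.114, and its adjusted p stayed between 0.0512 and 0.231 in the 26 alternatives. EOD differed from IF16 by 0.30 (95% interval 0.08 to 0.53) with an adjusted p of 0.0639, which fell to 0.0303 without EOD replicate 2 and 0.0245 without EOD replicate 5. The EOD difference from AL was -0.01 (95% interval -0.24 to 0.21).

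Counted together, no member passed in IF16 against AL in edgeR's test, where 3.5% of all genes did (1.4% higher and 2.1% lower). The members had 3 unadjusted p-values under 0.05 there, those of Arg1, Slc25a13 and Slc25a15, which were also the 3 members whose groups did not overlap, and the DESeq2 Wald test called 0 of them. Over all genes tested, 18.6% had an unadjusted p under 0.05 and 5.78% had groups that did not overlap in that comparison. In EOD against AL 2 of the 8 were higher and 0 lower, where 35.2% of all genes were called (17.6% higher and 17.6% lower), so the members' share did not stand above that of genes at large. Unadjusted p-values of edgeR's test were under 0.05 for 4 of the 8 there, against 45.1% of all genes. The groups did not overlap for 0 of the 8, against 18.6% of all genes. In EOD against IF16 1 was higher and 0 lower, where 16.1% of all genes were called (7.96% higher and 8.15% lower). There 6 of the 8 had an unadjusted p under 0.05, against 31.5% of all genes. The groups did not overlap for 1 of the 8, against 10.9% of all genes. The median log2 difference of the members was 0.01, 0.08 and 0.18 in these comparisons, against 0.00, -0.01 and 0.00 over all genes tested. The comparisons share libraries, so they are not independent of each other.

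**Figure D3:**
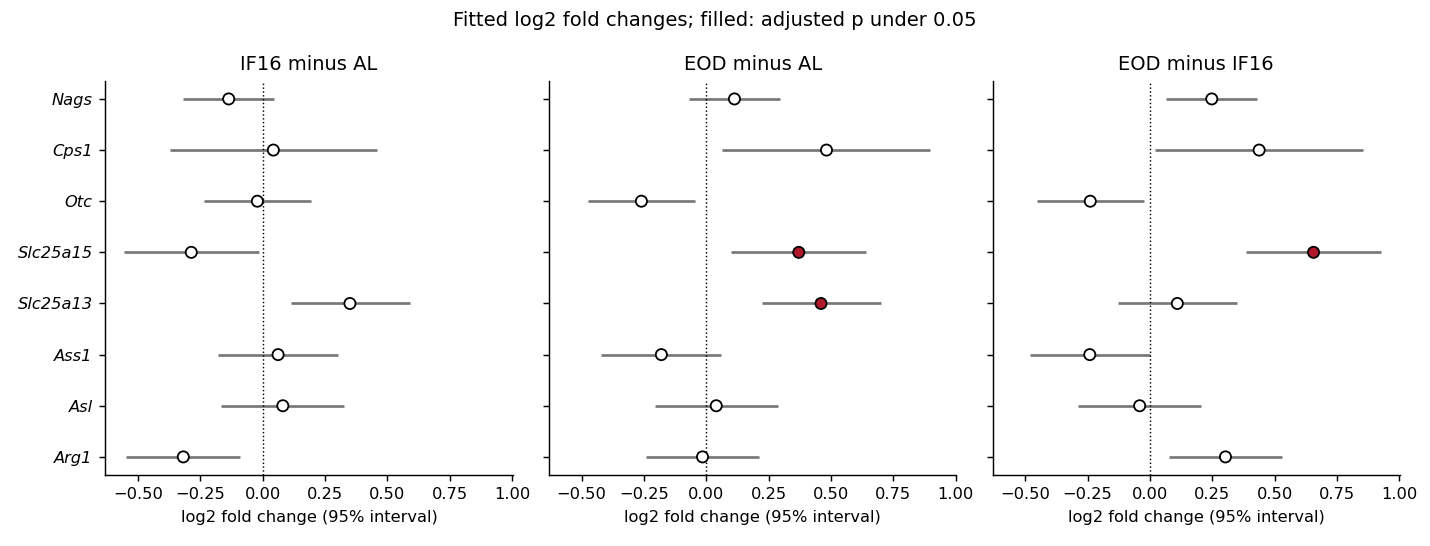
Fitted log2 differences of the 8 members with 95% intervals in the 3 comparisons, filled where the adjusted p was under 0.05. The filled points are Slc25a15 (0.37) and Slc25a13 (0.46) in EOD minus AL and Slc25a15 (0.66) in EOD minus IF16; every other point is open.

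Ratios of FPKM within a library do not depend on how libraries are scaled, and they show which members moved against each other; they are given as a description with no test. Slc25a15 to Otc, the ornithine carrier against the enzyme it feeds, was 0.390 to 0.416 in AL, 0.274 to 0.381 in IF16 and 0.436 to 0.960 in EOD. The 3 groups did not overlap. How often other pairs of genes separate the groups was not counted. Slc25a15 to Slc25a13 was 1.504 to 1.795 in AL, 0.913 to 1.32 in IF16 and 1.26 to 1.91 in EOD, so that IF16 lay below AL and overlapped EOD. Arg1 to Ass1 was 0.488 to 0.534 in AL, 0.361 to 0.454 in IF16 and 0.483 to 0.637 in EOD, and IF16 was below every library of the other groups. Cps1 to Otc was 0.636 to 1.67 in AL, 0.878 to 1.87 in IF16 and 1.63 to 2.37 in EOD, with overlap between EOD and both other groups. Slc25a13 to Ass1 was 0.0165 to 0.0211 in AL, 0.0199 to 0.0275 in IF16 and 0.0216 to 0.0379 in EOD. There EOD lay above AL, and IF16 overlapped both. Nags to Cps1 was 0.0634 to 0.190 in AL, 0.063 to 0.126 in IF16 and 0.0741 to 0.0884 in EOD, with overlap between all groups. Asl to Ass1, the consecutive cytosolic steps, was 0.1175 to 0.148 in AL, 0.126 to 0.150 in IF16 and 0.140 to 0.169 in EOD, and all groups overlapped.

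**Figure D4:**
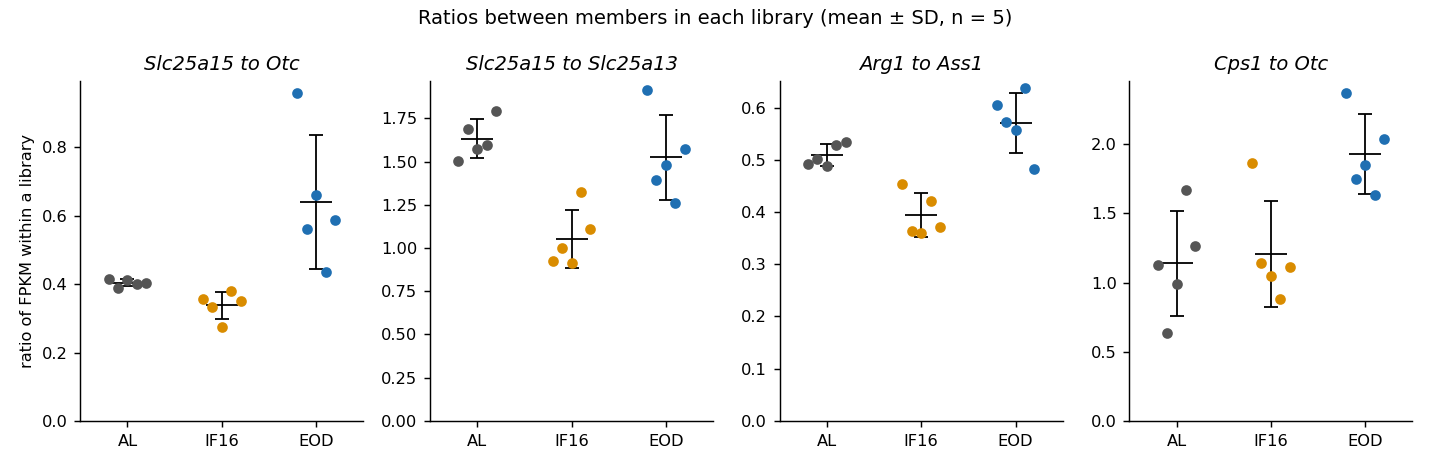
Ratios between members' FPKM in each library, with the mean ± SD (n = 5 a group) and axes from 0. The ratio of Slc25a15 to Otc separates the 3 groups, and the ratio of Arg1 to Ass1 is lowest in IF16 (0.361 to 0.454).

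Over the 15 libraries, the log2 CPM of Slc25a13 was most like that of Sirt3, a mitochondrial deacetylase (Pearson's r = 0.982), followed by Agmo (0.962) and Idh3b (0.956), among 11150 protein-coding genes. Slc25a15 was most like Sdc1 (0.931), C87436 (0.925) and Zfand2a (0.922), and Otc most like Tuba1b (0.93), Smu1 (0.928) and Idh1 (0.92). These values describe libraries that share their feeding group and their scaling factor, and they carry no test.

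The genes around the cycle were taken from lists chosen by function, and their counts are to be read against the shares of all genes called, 17.6% higher and 17.6% lower in EOD against AL and 1.4% and 2.1% in IF16 against AL. Among 12 tested genes of ammonia and glutamate handling, 1 was higher and 3 were lower in EOD against AL, and none passed in IF16 against AL. Glud1, glutamate dehydrogenase, which releases ammonia from glutamate in the mitochondrion, rose from 783 CPM in AL (SD 87.6) to 1012 CPM in EOD (SD 146), a log2 difference of 0.37 (SE 0.11, adjusted p = 0.0161). Glul, glutamine synthetase, which captures the ammonia that the cycle leaves, fell from 960 (SD 87.8) to 724 CPM (SD 76.3), by 0.41 (SE 0.10, adjusted p = 0.00376). Got2, the mitochondrial aspartate aminotransferase, fell by 0.40 (SE 0.10, adjusted p = 0.00417). Thus the enzyme that makes mitochondrial aspartate was lower in EOD while the carrier that exports it was higher. Of 8 genes of fumarate, malate and aspartate shuttling, 0 were higher and 5 lower in EOD against AL, with a median of -0.33. Got1 and Got2, both lower, are counted in both lists. The calls of Got1, Fh1, Me1 and Mdh2 were each lost in at least 1 alternative, and Mdh2 was named after its values had been seen.

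Among 13 other mitochondrial carriers, 3 were higher and 4 lower in EOD against AL, with a median of -0.10. Slc25a1, the citrate carrier, fell by 1.01 (SE 0.12, adjusted p = 8.27e-06), Slc25a44 by 0.85 (SE 0.19, adjusted p = 0.00303) and Slc25a45 by 0.56 (SE 0.10, adjusted p = 0.000353). Slc25a45 also fell in IF16 against AL, by 0.56 (adjusted p = 0.00396). Slc25a12, the paralog of Slc25a13, was at 7.32 CPM in AL and 7.86 CPM in EOD, with a log2 difference of 0.10 (SE 0.17, adjusted p = 0.667), and Slc25a2, the paralog of Slc25a15, was below 1 CPM on average in each group; both were named after their values had been seen. Among 6 genes of the carbonic anhydrase family, whose active members supply bicarbonate, 2 were higher and 3 lower in EOD. Car5a, a mitochondrial form, did not pass against AL in EOD or in IF16, and is named after its values had been seen. Car5b, the other mitochondrial form, was low in all groups and fell from 3.48 CPM (SD 0.33) to 1.75 CPM (SD 0.22) in EOD (log2 difference -0.99, adjusted p = 0.000295) and to 2.01 CPM in IF16 (-0.79, adjusted p = 0.0132). Its differences ran from -1.03 to -0.42 and from -0.87 to -0.35 over the alternatives. Car3, abundant in the cytosol, fell by 1.39 in EOD (SE 0.25, adjusted p = 0.000614), and Car8, a family member without catalytic activity, rose by 0.54 (SE 0.14, adjusted p = 0.00713).

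Genes that use arginine and ornithine outside the cycle split, with 4 of 18 higher and 4 lower in EOD against AL and 1 lower in IF16. Gamt, which makes creatine from guanidinoacetate, fell from 410 CPM (SD 76.2) to 136 CPM (SD 24.8), by 1.59 (SE 0.14, adjusted p = 5.99e-07). Gatm, which makes guanidinoacetate from arginine, rose by 0.98 (SE 0.19, adjusted p = 0.00101) from a mean of 4.43 CPM. Oaz1, the antizyme that lowers ornithine decarboxylase, rose by 1.12 (SE 0.18, adjusted p = 0.000241), and Srm, spermidine synthase, fell by 0.68 (SE 0.17, adjusted p = 0.00431). Oat, which links ornithine to glutamate, fell in IF16 by 0.53 (adjusted p = 0.0257), a call lost in 7 of 26 alternatives, those without AL replicate 1 (0.0653), AL replicate 3 (0.0534), IF16 replicate 3 (0.0739) or IF16 replicate 5 (0.0654) among them.

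Of 21 amino acid transporters of the plasma membrane, 1 was higher and 5 were lower in EOD against AL. Slc38a3, a glutamine transporter of periportal hepatocytes, fell from 1751 CPM (SD 230) to 601 CPM (SD 53.4), by 1.54 (SE 0.15, adjusted p = 2.47e-06). Slc1a4 fell by 1.44 (SE 0.25, adjusted p = 0.000402) from 3.92 CPM, and Slc16a10, an exporter of aromatic amino acids, rose by 0.44 (SE 0.13, adjusted p = 0.0131). A list of 14 enzymes was drawn up as glucagon and cAMP targets of amino acid breakdown, though Pck1 and G6pc in it belong to gluconeogenesis. Of these 14, 6 were higher and 1 lower in EOD against AL, 4 and 1 in EOD against IF16, and 0 and 1 in IF16 against AL. Cth, cystathionine gamma-lyase, rose by 0.77 (SE 0.13, adjusted p = 0.000251), Tdo2, tryptophan dioxygenase, by 0.94 (SE 0.16, adjusted p = 0.000262), and Aass, of lysine breakdown, by 0.58 (SE 0.14, adjusted p = 0.00368). The others called higher in EOD against AL were Agxt, Hpd and Bckdhb, and each of these calls was lost in at least 1 alternative. Tat, Sds, Pck1 and G6pc, also in the list, were not called in that comparison. Hpd, Bckdhb, Tat and Sds are named after their values had been seen.

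Of 17 hormone receptors and transcription factors of urea synthesis, 1 was lower in EOD against AL (Nfyb, a subunit of the factor that binds CCAAT, by 0.32, SE 0.09, adjusted p = 0.00893) and 1 was lower in IF16 against AL (Cebpa, by 0.52, adjusted p = 0.0276). The Cebpa call was lost without AL replicate 1 (0.0755) or IF16 replicates 3 (0.0773), 4 (0.0616) or 5 (0.0716). Among 10 genes of the modification and import of Cps1 and Otc, 3 were higher and 1 lower in EOD. Sirt5, the deacylase known to act on Cps1, fell from 15.5 CPM (SD 2.47) to 6.35 CPM (SD 0.22), by 1.28 (SE 0.12, adjusted p = 9.15e-07), and was lower in EOD than in IF16 as well (log2 difference -1.03, adjusted p = 3.56e-05). Sirt3, known to act on Otc, rose by 0.56 (SE 0.12, adjusted p = 0.00253), and Tomm20, an import receptor, by 1.17 (SE 0.22, adjusted p = 0.000896).

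A further 10 genes named by the same rule passed in EOD against AL but were lost in at least 1 alternative. Got1 was lost without AL replicate 4, EOD replicate 2 or EOD replicate 3, with adjusted p-values of 0.0529, 0.0614 and 0.0543. Car14 was lost without AL replicate 1 (0.0742) or EOD replicate 3 (0.0534), Hspe1 without AL replicate 2 (0.0532), EOD replicate 3 (0.056) or EOD replicate 4 (0.0502), and Agxt without AL replicate 2 (0.0592), AL replicate 4 (0.0545) or EOD replicate 2 (0.0692). Their EOD differences from AL were -0.62 for Car14, 0.51 for Hspe1 and 0.36 for Agxt. Agxt was lower in IF16 against AL (-0.48, adjusted p = 0.038), a call lost without AL replicate 1 (0.0555) among others. It was higher in EOD than in IF16 (0.84, adjusted p = 0.000267). Slc7a2, a cationic amino acid transporter, was lower in EOD (log2 difference -0.40, adjusted p = 0.0282). It was lost without AL replicates 4 (0.0914) or 5 (0.0527) or EOD replicates 1 (0.0647), 2 (0.0805) or 3 (0.0572), and was -0.20 (0.266) without both AL replicates 4 and 5. It was also lower in IF16 (-0.60, adjusted p = 0.02), a call lost without AL replicate 4 (0.0517) or IF16 replicates 2 (0.0545) or 3 (0.0593). Slc25a29, a carrier of basic amino acids, was higher in EOD by 0.50 (adjusted p = 0.0382). It was lost without AL replicates 1 (0.0545), 2 (0.0523), 4 (0.0794) or 5 (0.0584), and was 0.32 (0.138) without EOD replicate 1. It was also higher in IF16 by 0.78 (adjusted p = 0.0213), a call lost without AL replicate 4 (0.0507) or IF16 replicates 2 (0.0691) or 5 (0.0567). Fh1, the fumarase, was lost without AL replicates 4 and 5 together (0.0958), and Slc25a10, Me1 and Slc38a9 only with limma on FPKM without a filter (0.0566, 0.0744 and 0.0685).

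**Figure D5:**
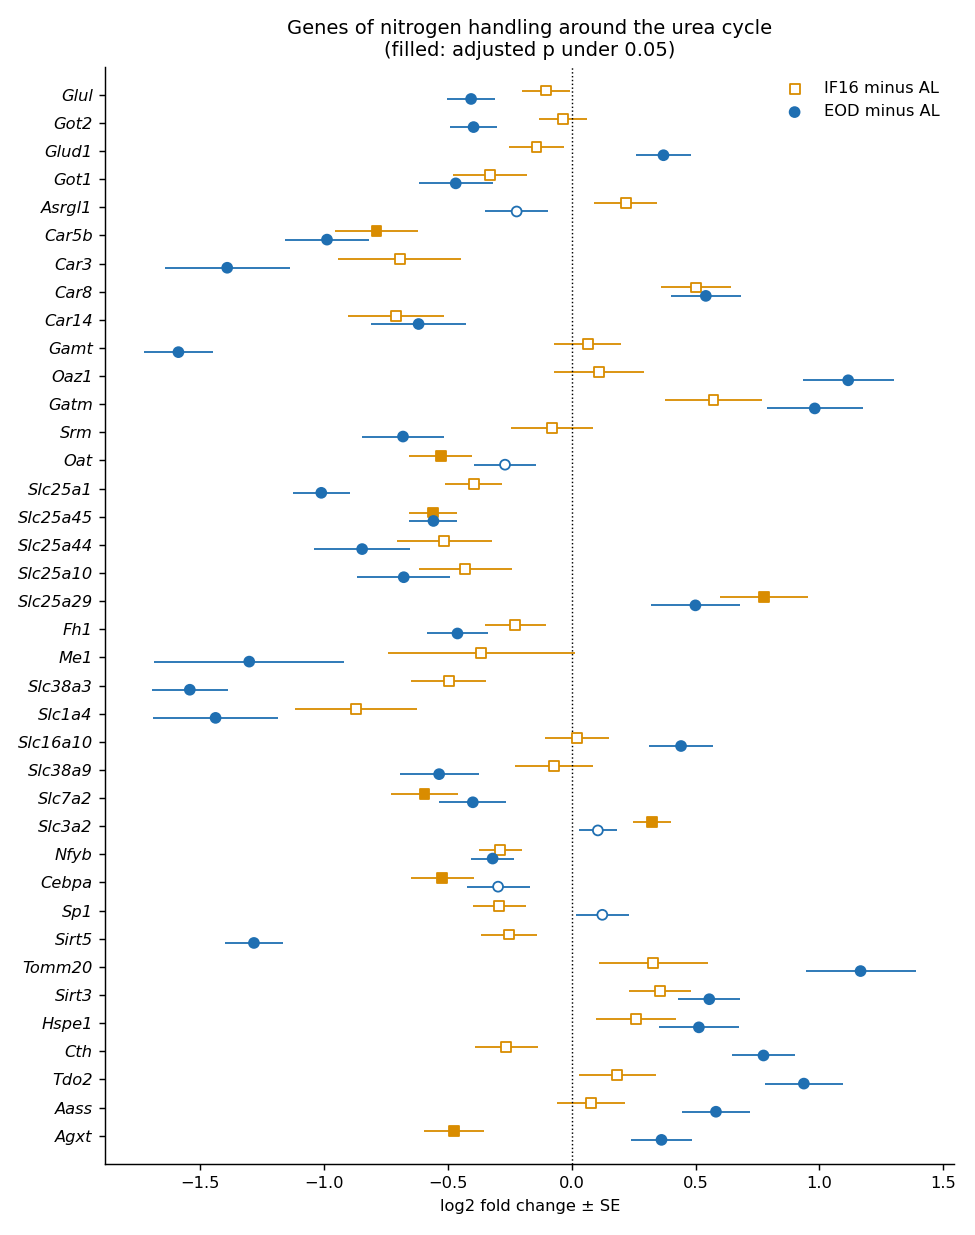
Fitted log2 differences ± SE of genes around the cycle, with IF16 minus AL as squares and EOD minus AL as circles, filled where the adjusted p was under 0.05. Gamt, Slc38a3 and Sirt5 have the EOD values -1.59, -1.54 and -1.28, and Glud1 (0.37) and Glul (-0.41) lie on opposite sides of 0.

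Urea synthesis is a periportal function, and markers of liver zones did not move one way. Of 12 periportal markers 3 were higher and 4 lower in EOD against AL, with a median of -0.15, and of 14 pericentral markers 1 was higher and 6 lower, with a median of -0.38. The summed pericentral level went the other way, from 7753 to 10790 CPM in AL to 13010 to 15340 CPM in EOD; its most abundant gene, Cyp2e1, was at 5998 CPM in AL and 11290 CPM in EOD (log2 difference 0.91, adjusted p = 2.21e-05) while Cyp1a2 fell by 1.12 (adjusted p = 6.48e-06). Both genes were named after their values had been seen.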

How the data were processed

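Liver mRNA was sequenced in 15 libraries, 5 per feeding group, and grouped by the labels. The authors deposited raw counts per gene and FPKM. The deposited FPKM equal the count scaled by the deposited gene length and the library total in 100% of cells (relative tolerance 1e-08). The submitters' processing notes list STAR 2.5, HTSeq 0.6.1, DESeq2 and mm10, with no role or order. Sources used here do not give the strand setting of the counting.

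Counts were fitted in R 4.3.3 with edgeR 4.0.16 (filterByExpr with a minimum count of 10, TMM, robust quasi-likelihood F test, all 15 libraries in 1 fit with a mean per group). Every adjusted p is from this test with Benjamini-Hochberg adjustment over 13837 genes, with 0.05 as the threshold, where no other test is named. SE is the size of the log2 difference divided by the square root of F. The common biological coefficient of variation was 0.211. Chi-square per degree of freedom was 24.9 to 219 between libraries of a group, so none was counted as a repeat of another. A floor of 3 counts is 0.0786 to 0.107 CPM per library, far below every member.

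The members and the lists were chosen with earlier results of these data known. Beside the members, the text names by a rule, from each list, up to 4 genes past the threshold in EOD against AL and up to 3 in the other comparisons, smallest p first; 1 gene that the rule takes is not reported here. Lists are given as counts and medians, with no set test. Likeness was measured as log2 CPM (prior count 2) over genes with a mean of at least 1 CPM. Promoter windows are from RefSeq (GRCm38.p6), and the fit was tested on simulated data. The 26 alternatives were DESeq2 size factors, TMM without mitochondrially encoded genes, the DESeq2 1.42.0 Wald test, no filter or 1 CPM in 5 libraries, the 2 groups alone, a replicate block, each library left out, AL replicates 4 and 5 left out, and limma 3.58.1 with log2-transformed deposited FPKM (pseudocount 1 or 0.1; minimum mean 0.5, or none).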

Additional observations from a re-analysis of the deposited data

Results flagged for a closer look

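Among 48 sets of 5 libraries looked at for 1 library far from the others (members' levels and ratios by group), 1 was found; this criterion marks about 1 set in 20 by chance. The ratio of Cps1 to Otc in FPKM was 1.867 in IF16 replicate 1, against 0.878 to 1.14 in the other 4 IF16 libraries. That library had the highest Cps1 level (1680 CPM) and the lowest Otc level (485 CPM) of its group, and its share of mitochondrially encoded transcripts, 8.98% of counts, was also the lowest of the group. Without it the Cps1 difference of IF16 from AL turned from 0.04 to -0.10, and neither value passed the test.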

How the results depend on the processing

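Slc25a13 in EOD against AL and Slc25a15 in EOD against IF16 passed in 26 of 26 alternatives, with adjusted p-values of 0.0004 to 0.0278 and 5.24e-05 to 0.009. Slc25a15 in EOD against AL passed in 18 of 26. It was lost in the 2 groups alone (0.0629) and with limma on FPKM plus 1 without a filter (0.0815), beside the losses without single libraries. The number of members called in EOD against AL, 2 in the main analysis, was 1 with only the 2 groups compared, 4 with limma on log2 FPKM plus 1, 4 with plus 0.1, and 1 to 3 with 1 library left out. In EOD against IF16, 1 in the main analysis, it was 2 with TMM without mitochondrially encoded genes, 3 with DESeq2, 3 with the filter of 1 CPM, 2 with the 2 groups alone, 2 without both AL 4 and 5, 3 with limma on log2 FPKM plus 1 or plus 0.1, and 1 to 3 with 1 library left out. In IF16 against AL it was 0 to 1 with 1 library left out. Over all genes, the 484 calls of IF16 against AL became 939 with DESeq2, 261 with limma without a filter and 241 to 619 with 1 library left out, and the 2229 of EOD against IF16 became 1418 to 3383. Differences near 0 changed sign with 1 library left out: Cps1 (-0.116 to 0.206) and Otc (-0.064 to 0.026) in IF16 against AL, Asl (-0.009 to 0.138) and Arg1 (-0.084 to 0.057) in EOD against AL, and Asl (-0.090 to 0.057) in EOD against IF16. Arg1 in EOD against AL was 0.011 without both AL 4 and 5. Where fewer libraries or genes entered, that is part of the alternative; otherwise the cause was not tested.

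The replicate numbers did not pair the samples: deviations of libraries with the same number correlated at -0.13 to 0.218, and most libraries matched another number best. With the number as a replicate block, 492, 4809 and 2226 genes and 0, 3 and 1 members were called, and Otc fell by 0.27 in EOD against AL (adjusted p = 0.0453). With 5 libraries a group, members' 95% intervals reached 0.18 to 0.42 on the log2 scale to either side of the difference, before any adjustment over genes.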
